A study of Mus musculus with 6 samples.

Results

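The genes described here are 43 mouse genes of epithelial cell junctions and cell polarity, chosen by name: cadherins and catenins of adherens junctions, membrane proteins and scaffolds of tight junctions, polarity proteins, desmosomal proteins and gap junction connexins. All 43 were measured, among 22180 genes in all, each read by the brightest probe set that is annotated to that gene symbol alone. RNA came from untreated NeuNDL-derived mouse cells, which carry an activated Neu (ErbB2) receptor tyrosine kinase that drives mammary tumours. The groups were 3 arrays of SLK knockout cells and 3 arrays of SLK wild-type cells, grown in a mammary epithelial medium with serum. SLK is a Ste20-like kinase known for a part in cell migration and focal adhesion turnover. The series design names passages 9, 19 and 29, without stating which array came from which passage, and how Slk was deleted is not stated either. Nothing says that the arrays came from separate cultures, so p-values reflect only the spread between arrays, which may be technical.

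Epithelial cells are held together by belts and spots of adhesion proteins. Adherens junctions join neighbours through cadherins, whose tails bind catenins and through them actin. Tight junctions above them, built from claudins, occludin and related proteins, seal the space between cells, and at corners where several cells meet a special set of proteins closes the gap. Desmosomes tie the keratin filaments of neighbouring cells together, gap junctions let small molecules pass, and polarity proteins decide where along the cell side the junctions form. In mammary epithelium E-cadherin and Epcam mark luminal cells above all, while P-cadherin marks basal cells.

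The deposited values are log2 signals. Array medians lay between 3.93 and 3.97, and arrays correlated across probe sets with Pearson's r from 0.990 to 0.994. The number of arrays limits the precision. Slk itself read 7.14, 7.21 and 7.20 on the knockout arrays, against 8.21, 8.30 and 8.34 on the wild-type arrays. The log2 fold change (knockout minus wild-type) was -1.10 (SE 0.056, limma adjusted p = 0.0021). On the knockout arrays Slk still read above the median gene (4.39), and SLK protein was not measured here. Of the epithelial markers Krt8 and Krt18 were bright in both groups, with means of 10.5 and 10.6 in knockout cells and 10.3 and 10.5 in wild-type cells. Krt19, of the same list, was dim, with means of 3.59 in knockout cells and 3.51 in wild-type cells, below the median gene (4.39). Krt14, a basal keratin, read 7.72 in knockout cells and 8.38 in wild-type cells (adjusted p = 0.0096). Of the 7 measured epithelial markers only Krt14 passed the test. On every knockout array 3 of the 7 lay higher and 1, Krt14, lower, where 8.79% and 8.1% of all genes did so. The 3 were Krt8, Krt18 and Krt19, with log2 fold changes of 0.15, 0.14 and 0.08. Of 10 fibroblast markers only Pdgfrb passed the test, and it was lower in knockout cells. The list moved both ways below that threshold. At an unadjusted limma p under 0.05, 4 of the 10 were lower, Pdgfrb included, and 2 were higher. Of all genes 4.47% were lower and 5.75% higher at that level. The 2 higher markers were Dcn, up by 0.43 log2 units, and Postn, up by 0.37, each higher on every knockout array. Of 4 adipocyte markers 1 passed the test, Fabp4, and of 2 measured Schwann and neural crest markers 1 did, Sox10, both higher in knockout cells. No marker in the lists of 6 endothelial and 5 leukocyte genes passed the test. At an unadjusted limma p under 0.05, 1 of the 6 endothelial genes was higher (Robo4) and 2 were lower (Kdr and Tek). Of all genes 5.75% were higher and 4.47% lower. The leukocyte gene Ptprc read 2.03 to 2.29 in knockout cells and 2.11 to 2.33 in wild-type cells. Cd68, of the same list, was brighter, at 7.06 to 7.18 in knockout cells and 7.10 to 7.20 in wild-type cells. Of the 5 leukocyte genes 1, Tyrobp, lay higher on every knockout array (log2 fold change 0.29, adjusted p = 0.36), and none lay lower. Of all genes 8.79% lay higher and 8.1% lower. Tyrobp was dim, with means of 3.41 in knockout cells and 3.12 in wild-type cells, below the median gene.

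SLK knockout cells had lower Cdh1 and Lsr signals, and the other 41 genes had no call. Each of the 2 calls rests on the brighter of 2 probe sets, and the groups overlapped in the dimmer one. Cdh1, which encodes E-cadherin, the main cadherin of epithelial adherens junctions, fell 1.34-fold, and Lsr, which encodes angulin-1, a protein of the corners where several cells meet, fell 1.31-fold. These were 2 of 43 members past an adjusted p of 0.05, both lower, where 0.113% of all genes were called lower and 0.325% higher (0.437% in all). The count was 7, all lower, with an intensity trend in the variance, a fit that called 1.99% of all genes (0.794% lower), and 0 with any single array left out. At an unadjusted p under 0.05 there were 10 members with lower and 3 with higher values in knockout cells, or 13 of 43, where 10.2% of all genes reached that level, 4.47% lower and 5.75% higher. The knockout arrays lay wholly below the wild-type arrays for 14 members and wholly above them for 8, where 8.1% and 8.79% of all genes did so (16.9% in all). The median log2 fold change of the members was -0.00023 beside 0.0038 for all genes, and their mean was -0.06 beside 0.0098. Member changes ran from -0.48 to 0.40.

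**Figure D1:**
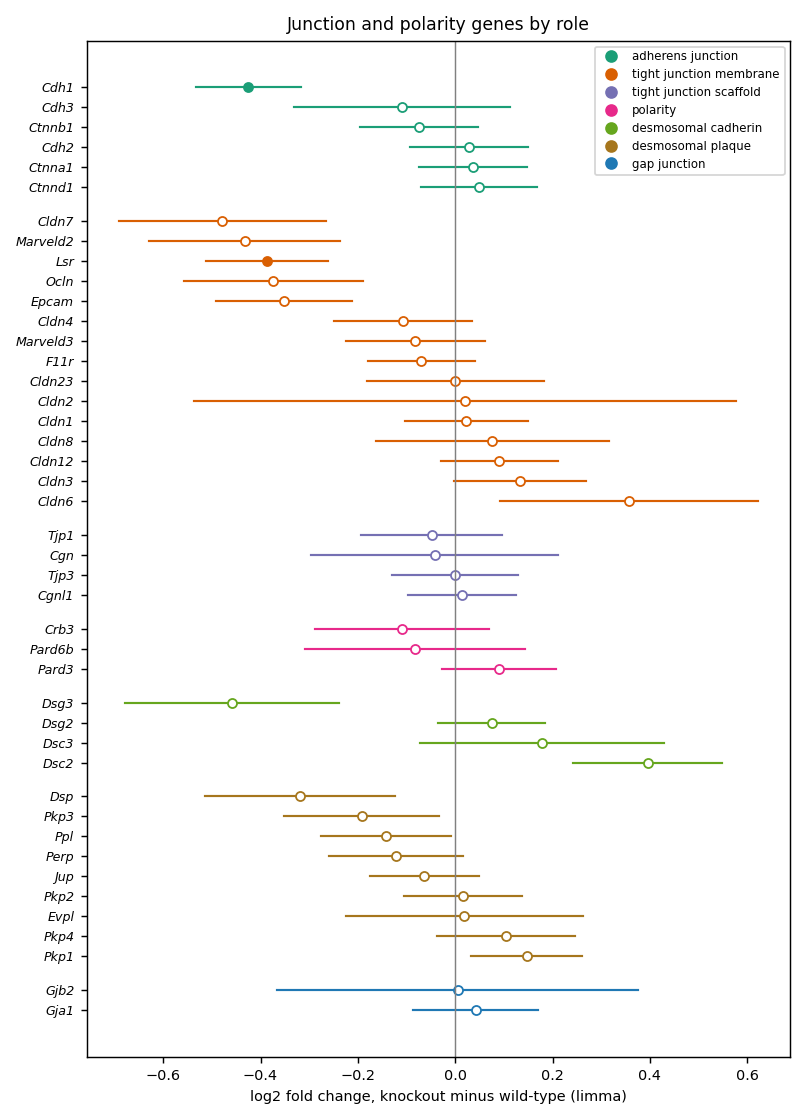
Log2 fold change (knockout minus wild-type, x axis) of each of the 43 genes, ordered within 7 groups of roles, with 95% confidence intervals from limma (n = 3 arrays per group); filled points have an adjusted p under 0.05. Cdh1 at -0.43 and Lsr at -0.39 are the filled points, and the tight junction scaffolds all lie between -0.05 and 0.01.

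Among the adherens junction genes only E-cadherin passed the test. Cdh1 read 7.37, 7.36 and 7.35 on the knockout arrays, against 7.80, 7.79 and 7.77 on the wild-type arrays. The groups were 0.40 log2 units apart at their closest, while the widest spread within either was 0.027. The log2 fold change was -0.43 (SE 0.045, 95% interval -0.53 to -0.32, adjusted p = 0.022). Its call was lost with any single array left out, at adjusted p from 0.098 to 0.13 and log2 fold changes from -0.43 to -0.42. It was also lost with every probe set tested by itself (adjusted p = 0.12), with the mean of its probe sets (0.45) and with replicate number as a block (0.19).

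N-cadherin, the cadherin of mesenchymal and neural cells, was not called. Its gene Cdh2 was bright, at 10.75, 10.80 and 10.85 on the knockout arrays and 10.80, 10.77 and 10.75 on the wild-type arrays, and the groups overlapped. Its log2 fold change of 0.03 had a 95% interval of -0.09 to 0.15. Cdh3, which encodes P-cadherin and is the next protein-coding gene to Cdh1 on chromosome 8, read 4.06, 4.17 and 4.03 in knockout cells and 4.38, 4.06 and 4.16 in wild-type cells. Its groups overlapped too, and its interval was -0.33 to 0.11.

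The catenins link these cadherins to actin or steady them at the membrane. Ctnnb1, which encodes beta-catenin, also a Wnt signal carrier, read 10.35, 10.39 and 10.32 in knockout cells and 10.41, 10.41 and 10.47 in wild-type cells. The groups stood 0.011 apart, and the log2 fold change of -0.07 (SE 0.051) had an adjusted p of 0.69. Ctnna1 (alpha-catenin, the actin link) and Ctnnd1 (p120-catenin, which keeps cadherins at the surface) had log2 fold changes of 0.04 and 0.05, with 95% intervals reaching from -0.075 to 0.15 and from -0.070 to 0.17. None of the 3 catenins passed the test.

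Among the 15 tight junction membrane proteins 6 lay lower and 3 higher on every knockout array, where 8.1% of all genes lay lower and 8.79% higher. Lsr recruits tricellulin to the corners between cells. It read 6.14, 6.07 and 6.06 on the knockout arrays, against 6.45, 6.52 and 6.45 on the wild-type arrays, a gap of 0.31 between groups that each spanned 0.082 or less. The log2 fold change was -0.39 (SE 0.052, 95% interval -0.51 to -0.26), and the adjusted p was 0.049. The call was lost with quantile normalization (adjusted p = 0.055), with median centring (0.058) and with every probe set tested by itself (0.20). It was also lost with replicate number as a block (0.24) and with any single array left out (0.14 to 0.19). Averaged over its probe sets the change was -0.20 (adjusted p = 0.39).

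Its partner at these corners had a similar change and no call. Marveld2, which encodes tricellulin, read 4.43, 4.67 and 4.47 in knockout cells and 5.03, 4.97 and 4.87 in wild-type cells. The groups did not overlap, and the log2 fold change was -0.43 (SE 0.082, adjusted p = 0.12). Ocln encodes occludin, a relative of tricellulin in the belt of the tight junction, and is the next protein-coding gene to Marveld2 on chromosome 13. It read 4.79, 4.81 and 5.01 in knockout cells and 5.18, 5.22 and 5.32 in wild-type cells, again without overlap, with a log2 change of -0.37 (SE 0.077, adjusted p = 0.15). Marveld3, the other relative, had -0.08 (SE 0.059), and its groups overlapped.

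Epcam, a surface glycoprotein of epithelial cells that binds claudin-7, read 7.31, 7.29 and 7.39 on the knockout arrays and 7.68, 7.75 and 7.62 on the wild-type arrays. All knockout arrays were lower, by 0.23 at the closest, and the log2 fold change was -0.35 (SE 0.058, adjusted p = 0.083). Cldn7 itself read 3.89, 3.97 and 3.92 in knockout cells and 4.23, 4.55 and 4.44 in wild-type cells. Its log2 fold change of -0.48 (SE 0.089, adjusted p = 0.11) was the lowest of all 43 members, on a probe set whose mean over the arrays was below that of the median gene (4.39). F11r, which encodes junctional adhesion molecule A, had -0.07 (SE 0.046).

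The other claudins, the pore and barrier proteins of the tight junction, had changes of both signs. Cldn6 read 3.19, 2.94 and 3.08 in knockout cells and 2.51, 2.75 and 2.88 in wild-type cells, a log2 change of 0.36 (SE 0.11, adjusted p = 0.34) at dim signal. Cldn3 and Cldn4 are neighbouring genes on chromosome 5 for barrier claudins. Cldn3 had a log2 fold change of 0.13 (SE 0.057) and Cldn4 one of -0.11 (SE 0.059), and the adjusted p was 0.50 for Cldn3 and 0.61 for Cldn4. Cldn12 had 0.09, Cldn8 0.08, Cldn1 0.02, Cldn2 0.02 and Cldn23 0.00054. The interval of the dim Cldn2 ran from -0.54 to 0.58. In all, 1 of the 15 tight junction membrane genes was called lower and none higher, where 0.113% and 0.325% of all genes were. Their median log2 fold change was -0.07.

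The promoters of Lsr and Epcam are shown because E-boxes of the letters CAGGTG are bound by repressors of epithelial genes such as Snail and Zeb proteins. Lsr is a called member, and Epcam was added after its values were seen. Each is the 250 bases before the gene's start, from RefSeq on GRCm38.p6, with CAGGTG or its reverse complement CACCTG in capitals. The Lsr window is chr7:30973470-30973719 on the minus strand, and the Epcam window is chr17:87635729-87635978 on the plus strand.
Lsr: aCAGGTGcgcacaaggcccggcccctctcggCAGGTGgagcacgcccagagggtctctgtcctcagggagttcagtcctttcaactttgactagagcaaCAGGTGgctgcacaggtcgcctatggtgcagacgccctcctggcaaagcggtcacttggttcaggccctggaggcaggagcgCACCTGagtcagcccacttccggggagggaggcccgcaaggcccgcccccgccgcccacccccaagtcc
Epcam: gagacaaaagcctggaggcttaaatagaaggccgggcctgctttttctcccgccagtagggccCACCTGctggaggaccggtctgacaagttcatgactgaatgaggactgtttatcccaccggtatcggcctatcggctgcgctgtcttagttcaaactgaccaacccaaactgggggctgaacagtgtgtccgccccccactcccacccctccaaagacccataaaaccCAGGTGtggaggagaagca

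The Lsr window held 4 matches, 3 of them on the strand of the gene, and the Epcam window held 2. Of all 32851 promoter windows of this length, 17.2% held at least 1 match, 2.06% at least 2 and 0.0426% at least 4. Windows were found for 26 of the 43 members, and 13 of these 26 had a match in at least 1 window, against 19.4% of all 27025 genes with a window. Member windows were richer in G and C, with a median of 62% against 52.4% in all windows. Of the other members with low knockout values, the Marveld2 windows and the Dsp window held no match, 1 of 2 Ocln windows held 2, and 1 of 2 Cldn7 windows held 2. Of the other members with a match, none of them called, Crb3 (log2 fold change -0.11) had 3 matches and Pard3 (0.09) had 3 in 1 of 2 windows. Pard6b had 2. Cldn6, with higher knockout values, had 1, and F11r, Cldn4, Gjb2, Pkp4 and Tjp3 had 1 in at least 1 window. The 2 Crb3 windows overlap and hold the same 3 sites. Cdh1 has no window in the table. A match is a run of letters and shows no binding.

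**Figure D2:**
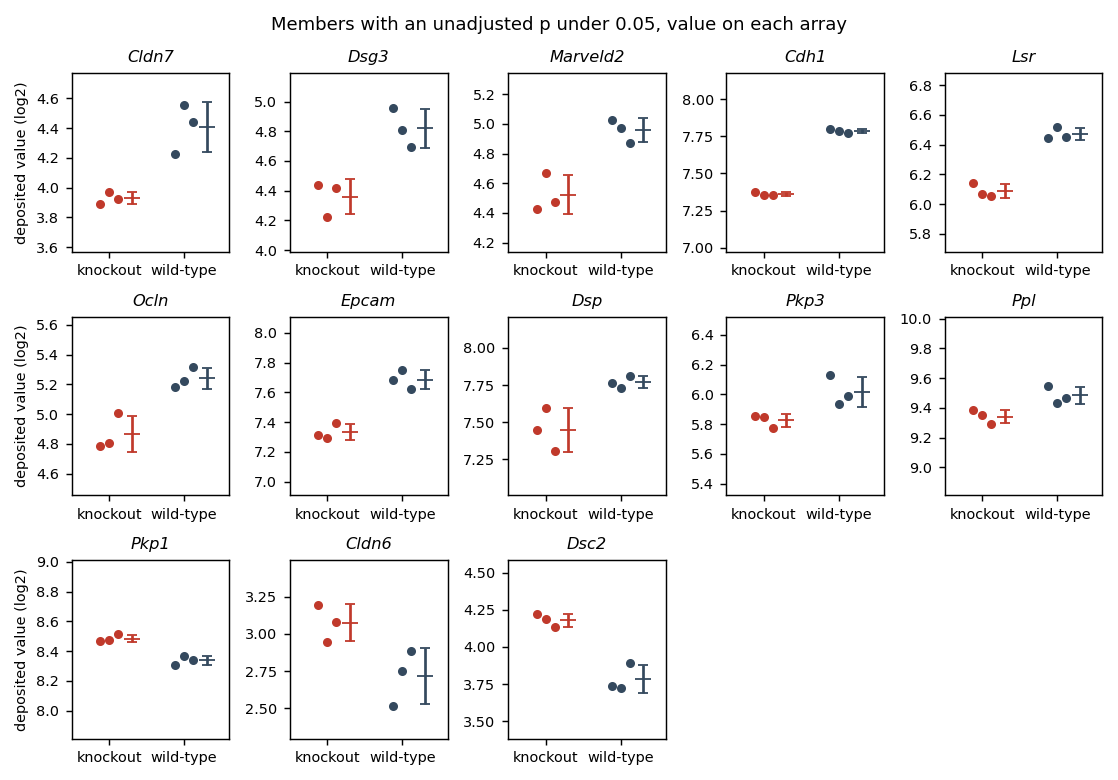
Deposited log2 value on each array (points, knockout left, wild-type right) with the mean and SD of each group (n = 3) for the 13 genes with an unadjusted p under 0.05, ordered by fold change; each panel spans 1.2 log2 units. In all 13 the groups do not overlap: 10 genes are lower and 3, namely Pkp1, Cldn6 and Dsc2, higher in knockout cells.

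The proteins under the tight junction membrane, which tie it to actin, did not pass the test. Tjp1 encodes ZO-1, the scaffold that gathers claudins and occludin. It read 9.38, 9.52 and 9.39 in knockout cells and 9.43, 9.53 and 9.47 in wild-type cells, with overlap and a 95% interval of the log2 fold change of -0.19 to 0.10. Cgn encodes cingulin, which binds ZO-1 and actomyosin. It read 6.98, 7.24 and 7.29 in knockout cells and 7.36, 7.18 and 7.09 in wild-type cells, and its interval ran from -0.30 to 0.21. Its relative Cgnl1 (paracingulin) had 0.01 and Tjp3 (ZO-3) -0.00023, with intervals of -0.097 to 0.12 and -0.13 to 0.13. All 4 scaffolds had overlapping groups, and their median log2 fold change was -0.02.

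The 3 polarity genes gave small values of both signs. Pard3 encodes the Par complex scaffold that sets the place of the junction. It read 7.82, 7.88 and 7.81 in knockout cells and 7.74, 7.72 and 7.78 in wild-type cells, a gap of 0.034 between groups and a log2 change of 0.09 (SE 0.049, adjusted p = 0.61). Crb3, the apical Crumbs protein of epithelia, read 5.03, 5.28 and 5.12 in knockout cells and 5.31, 5.21 and 5.24 in wild-type cells. The groups overlapped, with an interval of -0.29 to 0.07. Pard6b, an adaptor of the same Par complex, had -0.08 with an interval of -0.31 to 0.14.

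Desmosomal cadherins had changes of both signs, without a call. Dsc2 (desmocollin 2, widely expressed in epithelia) read 4.22, 4.18 and 4.13 in knockout cells, against 3.74, 3.73 and 3.89 in wild-type cells. All knockout arrays were higher, and the log2 fold change of 0.40 (SE 0.064, adjusted p = 0.077) was the highest of the 43 members. Dsg3 (desmoglein 3, a cadherin of basal layers) read 4.44, 4.22 and 4.42 in knockout cells and 4.96, 4.81 and 4.69 in wild-type cells. All its knockout arrays were lower, with -0.46 (SE 0.092, adjusted p = 0.13). Both genes lie in the desmosomal cadherin cluster of chromosome 18, each next to a member with a smaller change: Dsc3 had 0.18 (SE 0.10) and Dsg2 0.07 (SE 0.046). The difference between the neighbours was not tested.

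Of the 9 plaque proteins, which connect these cadherins to keratin, none passed the test. Dsp encodes desmoplakin, the keratin anchor. It read 7.45, 7.60 and 7.30 on the knockout arrays and 7.77, 7.73 and 7.81 on the wild-type arrays, without overlap, with a log2 change of -0.32 (SE 0.081, adjusted p = 0.24). Jup encodes plakoglobin, a catenin shared by desmosomes and adherens junctions. It read 8.61, 8.59 and 8.58 in knockout cells and 8.64, 8.64 and 8.69 in wild-type cells, and its log2 fold change was -0.06 (SE 0.047, adjusted p = 0.71).

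The plakophilins, which cluster desmosomal cadherins at the plaque, differed among themselves. Pkp3 read 5.85, 5.85 and 5.77 in knockout cells and 6.13, 5.94 and 5.99 in wild-type cells, a log2 change of -0.19 (SE 0.066, adjusted p = 0.39). Pkp1 read 8.47, 8.47 and 8.51 in knockout cells and 8.31, 8.37 and 8.34 in wild-type cells, a log2 change of 0.15 (SE 0.047, adjusted p = 0.36). So Pkp3 was lower and Pkp1 higher on every knockout array, neither with a call. Pkp4 had 0.10 and Pkp2 0.02, with overlapping groups.

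The plakins Ppl and Evpl (periplakin and envoplakin, crosslinkers of keratin at the cell border) had log2 fold changes of -0.14 and 0.02. Ppl read 9.38, 9.35 and 9.29 in knockout cells and 9.55, 9.44 and 9.47 in wild-type cells, without overlap (adjusted p = 0.45), while the Evpl groups overlapped. Perp, a desmosomal membrane protein and p53 target, had -0.12 (SE 0.057, adjusted p = 0.54). In all, 5 of the 9 plaque genes lay lower and 1 lay higher on every knockout array (8.1% and 8.79% of all genes), with a median of -0.06.

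**Figure D3:**
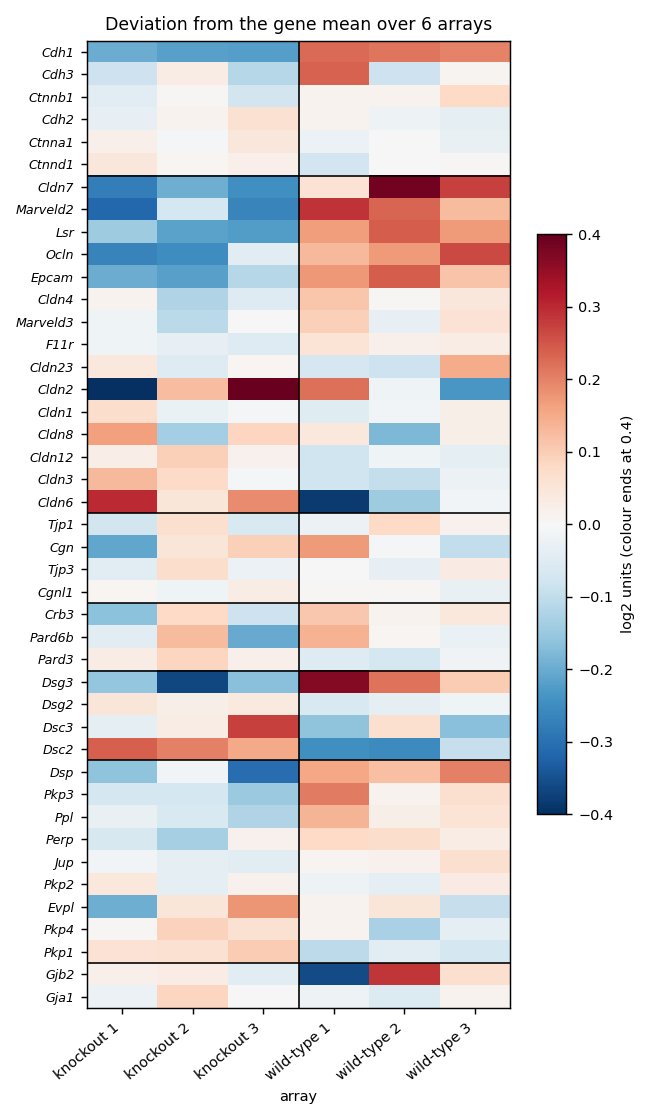
Deviation of each gene from its own mean over the 6 arrays (colour, log2 units, ends at ±0.4), with knockout arrays 1 to 3 left of wild-type arrays 1 to 3 and lines between the groups of roles. Cdh1, Lsr, Epcam, Marveld2, Ocln and Cldn7 are blue on all knockout arrays and red on all wild-type arrays, and the scaffolds are pale apart from Cgn.

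The connexins form the channels of gap junctions. Gja1 (connexin 43) read 9.16, 9.27 and 9.18 in knockout cells and 9.16, 9.12 and 9.19 in wild-type cells, with overlap and an interval of -0.09 to 0.17. Gjb2 (connexin 26) was dim, at 3.24, 3.25 and 3.18 in knockout cells and 2.86, 3.51 and 3.29 in wild-type cells. The spread of its wild-type arrays, 0.65, exceeded that of any other member's wild-type arrays, and its interval was -0.37 to 0.38.

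Across arrays, the low members were examined together. The median deviation of the 10 low members from their own means was -0.18, -0.21 and -0.19 on knockout arrays 1 to 3, against 0.17, 0.22 and 0.15 on wild-type arrays 1 to 3. These genes were picked for lower knockout values, so the sign of each is given in advance. Over all 43 members the medians were -0.030, 0.0035 and -0.0070 on the knockout arrays and 0.016, 0.0033 and 0.025 on the wild-type arrays. Of the 13 members with an unadjusted p under 0.05, 9 stayed under it with any single array left out. Those that did not were Cldn6, Pkp1, Pkp3 and Ppl. The 13 were picked by p on these same arrays, and the share of all genes that stay was not computed. The count therefore only describes the members.

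The probe sets of a gene did not always give the same value. A second, dimmer probe set of Cdh1 read 2.806, 2.649 and 3.406 in knockout cells and 3.132, 3.003 and 3.041 in wild-type cells, with a log2 fold change of -0.10 (SE 0.20). That of Lsr read 5.33, 5.42 and 5.11 in knockout cells and 5.20, 5.26 and 5.47 in wild-type cells, with -0.02 (SE 0.11). The groups overlapped for both. Averaged over probe sets, Cdh1 too lost its call, with a log2 fold change of -0.27 (adjusted p = 0.45), so both calls rest on the brighter probe set. For Dsg2 the dimmer probe set gave 0.08 beside 0.07, and for Cdh2 it gave -0.07 beside 0.03. The other 39 members have 1 probe set each. The sources used here do not say which exons the probes read.

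**Figure D4:**
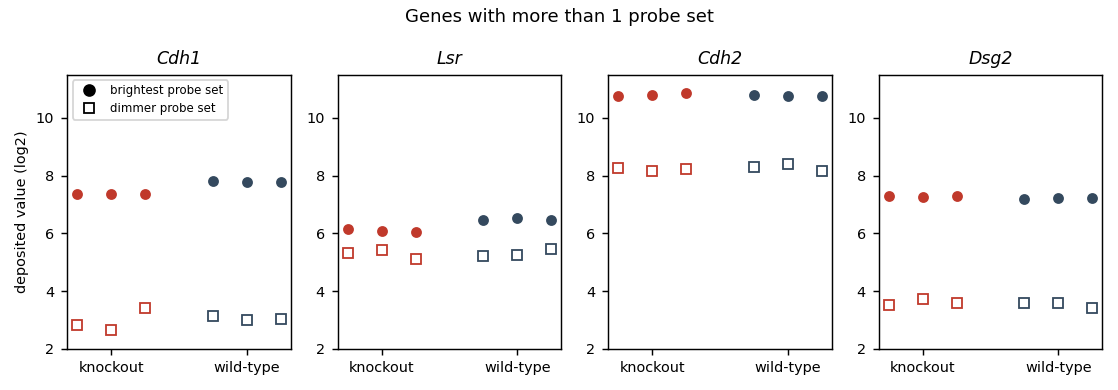
Deposited log2 values on each array (knockout left, wild-type right) for the 4 members with more than 1 probe set, with filled circles for the brightest probe set and open squares for the dimmer one. The groups separate in the brightest probe sets of Cdh1, Lsr and, by 0.039, Dsg2, and overlap in the dimmer ones.

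Other genes of the same structures were read from lists chosen for this purpose. Of 50 other measured junction and polarity genes none passed the test. The smallest p belonged to Llgl2, a basolateral polarity gene, at 5.95, 5.88 and 5.91 in knockout cells and 6.08, 6.11 and 6.09 in wild-type cells (log2 fold change -0.18, SE 0.048, adjusted p = 0.26). Their median was -0.0034, and 7 of 50 had an unadjusted p under 0.05, 5 lower and 2 higher (10.2% of all genes). Of 20 other cadherins none passed, and 3 had an unadjusted p under 0.05, 2 lower and 1 higher. Cdh11, a cadherin of mesenchymal cells, led them at 5.05, 5.15 and 5.36 in knockout cells and 5.69, 5.69 and 5.95 in wild-type cells (log2 fold change -0.59, SE 0.11, adjusted p = 0.10). It lay lower on all knockout arrays, as Cdh1 did.

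Of 16 measured transcription and splicing regulators of junction genes none passed either. At an unadjusted p under 0.05 there were 6 of 16, where 10.2% of all genes reached that level. Of these 5 were lower in knockout cells, namely Esrp2, Klf5, Snai3, Grhl3 and Twist2, and 1 was higher, Zeb1. The smallest p was that of Esrp2, a splicing factor of epithelial cells, at 6.43, 6.29 and 6.35 in knockout cells and 6.68, 6.78 and 6.76 in wild-type cells (log2 fold change -0.38, SE 0.058, adjusted p = 0.066). The E-box repressors named above were looked at after their values were seen. Zeb1 lay higher on every knockout array, with a log2 difference of 0.15 (SE 0.062, adjusted p = 0.47). For Snai1 the difference was 0.0099 with a 95% interval of -0.19 to 0.21, and for Snai2 it was 0.0064 with an interval of -0.11 to 0.12. Snai3 lay lower on every knockout array, at -0.18 (SE 0.052, adjusted p = 0.32). Zeb2 was not analysed here.

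Markers of other cells are set beside these values, since fewer cells of a type and less RNA per cell cannot be told apart in bulk RNA. Summed on the linear scale, the 7 epithelial markers gave 5007 to 5069 in knockout cells and 4884 to 4971 in wild-type cells. These sums came mostly from Krt8, Krt18 and Itga6, while Krt14 was lower in knockout cells. The 10 fibroblast markers summed to 749 to 774 in knockout cells and 760 to 805 in wild-type cells, with 5 of 10 lower in knockout cells by mean, Col1a1 at -0.33 and Dcn at 0.43. The 6 endothelial markers summed to 72.6 to 78.9 in knockout cells and 75.8 to 79.5 in wild-type cells. The 5 leukocyte markers summed to 169 to 181 in knockout cells and 171 to 181 in wild-type cells, mostly through Cd68. The 4 adipocyte markers summed to 171 to 180 in knockout cells and 97.7 to 119 in wild-type cells, through Fabp4. The 2 Schwann and neural crest markers summed to 62.5 to 75.7 in knockout cells and 27.3 to 32.9 in wild-type cells, through Sox10. No marker is listed at 0. Small nucleolar RNA genes, whose share can depend on RNA preparation, were read beside these. Of 47 Snord genes 44 had a log2 fold change below 0, and their median was -0.19. Among all 22180 genes 10751 had one not above 0. None of the 47 had a call, but 17 had an unadjusted p under 0.05, all lower, where 4.47% of all genes were. Wholly below the wild-type arrays lay 20 of 47, where 8.1% of all genes did so, and none lay wholly above. The part of these genes and markers in the junction values was not tested.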

How the data were processed

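Total RNA was biotin-labelled and measured on 6 one-colour arrays. The authors deposited a table of log2 values for 41345 probe sets, made with Affymetrix Expression Console 1.4.1.46 per the submitters' processing notes. The sources used here do not give the background correction, normalization, summarisation or log base. The scale was taken as log2 because values reach 12.4, above what a 16-bit scanner allows on a natural log scale (11.1). Array medians were nearly equal, and the values were used as deposited. Such values compress fold changes of dim genes. Detection calls were not used.

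The platform annotation gave 23521 probe sets a single symbol, 1814 several, and did not list 16010. Per symbol the probe set with the highest mean was kept (22180 genes). Samples were grouped by title. The difference knockout minus wild-type was fitted in R 4.3.3 with limma 3.58.1 (lmFit, eBayes without trend, no covariate, two-sided, Benjamini-Hochberg over all genes, threshold 0.05), with no filter on dim genes. Every p and adjusted p is limma's, and SEs are its moderated ones. The fit was tested on simulated arrays of 22180 genes, where it recovered 46.3% of genes changed by 0.5 and 88.1% of genes changed by 1 log2 unit. No array was a repeat of another (lowest SD of differences between 2 arrays, 0.264).

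The members, lists, tests and alternatives were chosen with earlier results of these data known. Values on every array are given for members with an unadjusted p under 0.05 and for Cdh1, Cdh2, Cdh3, Ctnnb1, Epcam, Ocln, Tjp1, Cgn, Pard3, Crb3, Dsp, Jup, Gja1 and Gjb2. Of each further list the genes past the threshold, or otherwise the gene with the smallest p, are named. Promoters were planned for called members. The files name no genome build. GRCm38.p6 served for gene neighbours and promoters. Alternatives were other normalizations, filters on dim genes, other uses of probe sets, an intensity trend, a replicate block and leaving out each array.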

Additional observations from a re-analysis of the deposited data

How the results depend on the processing

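The count of 97 genes called became 206 without the dimmest 30% of genes, 341 without the dimmest 50%, 441 with an intensity trend, 29 with every probe set by itself, 6 with the replicate block and 16 to 28 with 1 array left out. The 2 members called became 4 (1 higher) without the dimmest 30%, 6 without the dimmest 50%, 7 with an intensity trend, 1 (Cdh1) with quantile normalization or median centring, and 0 with means of probe sets, every probe set by itself, the replicate block or any array left out (0 to 0). The causes of these changes in count were not tested. The filters kept 38 and 34 members and had a member median of -0.056 each. Under them fewer genes were tested and limma was refitted, and unadjusted p-values moved as well. For Cdh1 the unadjusted limma p was 4.6e-05 in the main fit and 4.0e-06 without the dimmest 50%. Same-numbered arrays did not deviate together (r = 0.044, 0.017 and -0.066 for replicates 1 to 3), so the numbers were not taken as pairs. Under the trend the called members were Cdh1, Lsr, Epcam, Cldn7, Marveld2, Dsg3 and Dsp, all lower. Slk stayed past the threshold in all 14 alternatives (log2 -1.14 to -1.07).

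Of the 43 members 34 kept their sign in every alternative that tested them. The exceptions had changes near 0: Cldn23 (-0.00028 with quantile normalization, -0.0030 with median centring), Gjb2 (-0.0011 with quantile normalization) and Cdh2 (-0.020 with means of probe sets). With 1 array left out the log2 fold change ran from -0.0067 to 0.043 for Cldn1, -0.17 to 0.27 for Cldn2, -0.040 to 0.075 for Cldn23, -0.035 to 0.023 for Tjp3, -0.10 to 0.051 for Cgn, -0.0021 to 0.037 for Pkp2, -0.065 to 0.12 for Evpl and -0.17 to 0.15 for Gjb2.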
